A study of Homo sapiens with 2 samples.

Results

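The heat shock proteins and chaperones HSPA1A, HSPA1B, HSPA8, HSPH1, DNAJB1, DNAJA1, HSP90AA1, HSPB1, HSPD1 and HSPE1 were followed in single-cell RNA libraries of the human breast cancer lines MDAMB468 and CAL51. The genes were listed by symbol, and all 10 were found by Ensembl identifier among the 30796 genes of the count matrix. HSPA1A, HSPA1B, HSPH1, DNAJB1, HSP90AA1 and HSPB1 were taken as the 6 inducible members, and HSPA8, DNAJA1, HSPD1 and HSPE1 as the 4 constitutive ones. This grouping rests on general knowledge of the family and not on these data. Inducible members are those strongly raised by heat shock. Constitutive members are high in unstressed cells, and some of them also respond to heat. Each line was captured once by Drop-seq, in which a cell and a barcoded bead meet in an oil droplet and the 3′ ends of polyadenylated transcripts receive a sequence that marks the cell and another, the unique molecular identifier or UMI, that marks the molecule. Both are established lines labelled as triple negative breast cancer, and the labels name no treatment, stress, genetic change or passage for either. With 1 library per line there is no replicate, so a difference between the lines is a difference between these libraries. No test was possible, and every interval is a 95% interval within a library, for counting error only. For levels and ratios it covers the count of UMIs. For shares of barcodes it covers the count of barcodes, which are not replicates of a line.

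Heat shock proteins bind unfolded polypeptides and keep them from aggregating until they fold, cross a membrane or are degraded. HSP70 proteins work in cycles of ATP hydrolysis that J-domain (DNAJ) proteins start and nucleotide exchange factors end, HSP90 takes over partly folded kinases and receptors, and HSP60 with its lid HSP10 forms a folding chamber in mitochondria. When unfolded protein builds up, the transcription factor HSF1 binds heat shock elements, repeats of the bases GAA in alternating orientation, and raises the inducible genes, while the cognate members are made in unstressed cells.

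The promoter sequences of the genes that turned out most different between the lines, HSPA1A and HSPA1B, are shown with that of DNAJB1, an inducible gene that differed little. The sequences come from RefSeq (GRCh38.p14), in which all 10 members matched an entry, and each shows the bases upstream of a listed transcript start that lie outside every exon of GENCODE 29. HSPA1A is read from chr6:31815293-31815463 on the plus strand, HSPA1B from chr6:31827488-31827734 on the plus strand, and DNAJB1 from chr19:14518421-14518647 on the minus strand, 5′ to 3′. Capitals mark matches to a heat shock element of 2 units, GAANNTTC or TTCNNGAA. Where a gene had several listed starts, the start with the most matches was taken. DNAJB1 has 3 listed starts, of which 1 held a match, so its stretch was selected for its matches.
HSPA1A: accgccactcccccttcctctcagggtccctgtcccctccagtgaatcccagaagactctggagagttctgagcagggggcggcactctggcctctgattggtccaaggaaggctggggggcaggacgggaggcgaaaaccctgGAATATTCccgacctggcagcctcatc
HSPA1B: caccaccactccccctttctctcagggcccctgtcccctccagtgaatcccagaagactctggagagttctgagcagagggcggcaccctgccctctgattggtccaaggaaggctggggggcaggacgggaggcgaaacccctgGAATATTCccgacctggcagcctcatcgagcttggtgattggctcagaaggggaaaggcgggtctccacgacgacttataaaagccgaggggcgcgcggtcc
DNAJB1: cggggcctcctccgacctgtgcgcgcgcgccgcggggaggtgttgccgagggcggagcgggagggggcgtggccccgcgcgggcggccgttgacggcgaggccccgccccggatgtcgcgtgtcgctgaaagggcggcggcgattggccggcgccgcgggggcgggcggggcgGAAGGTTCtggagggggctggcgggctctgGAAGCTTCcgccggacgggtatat

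HSPA1A and HSPA1B encode nearly the same HSP70 protein from intronless genes whose starts are 12195 bases apart. Over the 250 bases before the start, 235 of 249 aligned bases were identical (94.4%), and both held the match GAATATTC, at bases 106 to 99 before the start in HSPA1A and 105 to 98 in HSPA1B. The DNAJB1 stretch held GAAGGTTC at bases 77 to 70 and GAAGCTTC at bases 47 to 40. Each motif is its own reverse complement, so a match counts for both strands, and matches may overlap. A match to either motif within the 250 bases was present at 1 or more listed starts of 8 of the 10 members, all but HSPH1 and HSPE1, and at 14% of 27305 genes in the RefSeq table. Per start, 8 of the 14 listed for the members held one, against 11.6% of 35116 starts. A 3-unit form, GAANNTTC followed by NNGAA, searched on both strands, was found for HSP90AA1, HSPA8 and HSPD1 and at 0.441% of all starts. HSPD1 and HSPE1 lie head to head on opposite strands. HSPD1 has 2 listed starts, and the 1 that held matches lies 539 bases from the HSPE1 start. The HSPD1 matches, 228 to 245 bases before that HSPD1 start, were also 294 to 311 bases before the HSPE1 start, outside the HSPE1 window. A match is a sequence description and was not tested as a binding site.

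The MDAMB468 library held 306 barcodes and 5501900 UMIs, and CAL51 1346 barcodes and 16223444 UMIs, with a median of 10016.5 and 8635 UMIs per barcode. Before this, 31 barcode sequences that occurred under both names were left out of CAL51, where they held 135240 UMIs. They were kept in MDAMB468, where they held 2181232 UMIs, at least 40128 per barcode, and 118 of the HSPA1A UMIs. For measures per barcode, a further 64 barcodes of MDAMB468 and 7 of CAL51 were left out because their sequence was 1 base from that of a barcode with at least 5 times their UMIs, which left 242 and 1339. The median mitochondrial share was 6.04% in MDAMB468 and 4.25% in CAL51. The epithelial genes EPCAM, KRT8 and KRT18 were detected in both lines. EPCAM was at 867 UMIs in 1000000, or CPM, in MDAMB468 and 283 in CAL51. KRT8 was at 764 and 919 CPM, and KRT18 was higher in CAL51, at 555 and 1555 CPM. KRT19 and CDH1 were mainly in MDAMB468 (1934 and 33.1 CPM against 30.6 and 0.431). Of the mesenchymal genes CDH2 was in CAL51 alone (0 and 1411 UMIs). VIM, at 316 and 332 CPM, and FN1, at 4.18 and 6.16, were closer to level. The receptor genes that define the triple negative class were at 3 and 0 UMIs for ESR1, 1 and 1 for PGR, and 7.09 and 16.1 CPM for ERBB2 in MDAMB468 and CAL51. The markers of other cell types were near 0, with 0 and 3 UMIs of PTPRC, 3 and 2 of CD68 and 6 and 4 of PECAM1.

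HSPA1A and HSPA1B were present in MDAMB468 and almost absent in CAL51. HSPA1A (ENSG00000204389, chromosome 6, 31815464 to 31817946, GENCODE 29 on GRCh38) had 271 UMIs in MDAMB468, or 49.3 CPM (43.6 to 55.5), and 5 UMIs in CAL51, or 0.308 CPM. The level in MDAMB468 was 159.8-fold that in CAL51 (67.6 to 496), a log2 difference of 5.26 on the scale log2(CPM + 1) used throughout. HSPA1B (ENSG00000204388, chromosome 6, 31827735 to 31830255) had 125 UMIs and 22.7 CPM in MDAMB468 and 12 UMIs and 0.74 CPM in CAL51, 30.7-fold (17 to 61) and 3.77 on the log2 scale. With the 31 shared barcodes kept in CAL51 the log2 differences were 5.02 for HSPA1A and 3.72 for HSPA1B. Taking only barcodes of 5000 to 15000 UMIs, which leaves the shared ones out of MDAMB468 too, gave 4.81 for HSPA1A and 2.99 for HSPA1B. These were the members at or past 2-fold in MDAMB468, 2 of 10, where 15.8% of the 15347 genes with at least 20 UMIs were. No member was at or past 2-fold in CAL51, where 18.6% of those genes were. The median of those genes was -0.13, that of the 10 members -0.26 and that of the 8 members other than HSPA1A and HSPA1B -0.31.

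Even in MDAMB468 the inducible HSP70 pair was a small part of the family. HSPA1A and HSPA1B together held 396 UMIs there, which is 6.75% (6.09 to 7.48) of the count of HSPA8, the HSP70 made in unstressed cells. In CAL51 they held 17 UMIs, or 0.0816% (0.0475 to 0.131) of that of HSPA8. UMIs are counted at transcript ends, so such ratios were not divided by gene length. HSPA1A to HSPA1B was 217% (175 to 270.2) in MDAMB468 and 41.7% (11.5 to 127) in CAL51, where it rests on those 17 UMIs. The split between these genes is uncertain, since 22.2% of the 50-base windows in the last 500 bases of HSPA1A also occur in the other gene's transcript and 1.11% of those of HSPA1B do. The sum does not depend on that split, at 72 CPM (65.1 to 79.4) in MDAMB468 and 1.05 CPM (0.61 to 1.68) in CAL51, 68.7-fold (42.4 to 119). HSPA1L, the testis-type HSP70 beside them, had 9 and 4 UMIs.

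**Figure D1:**
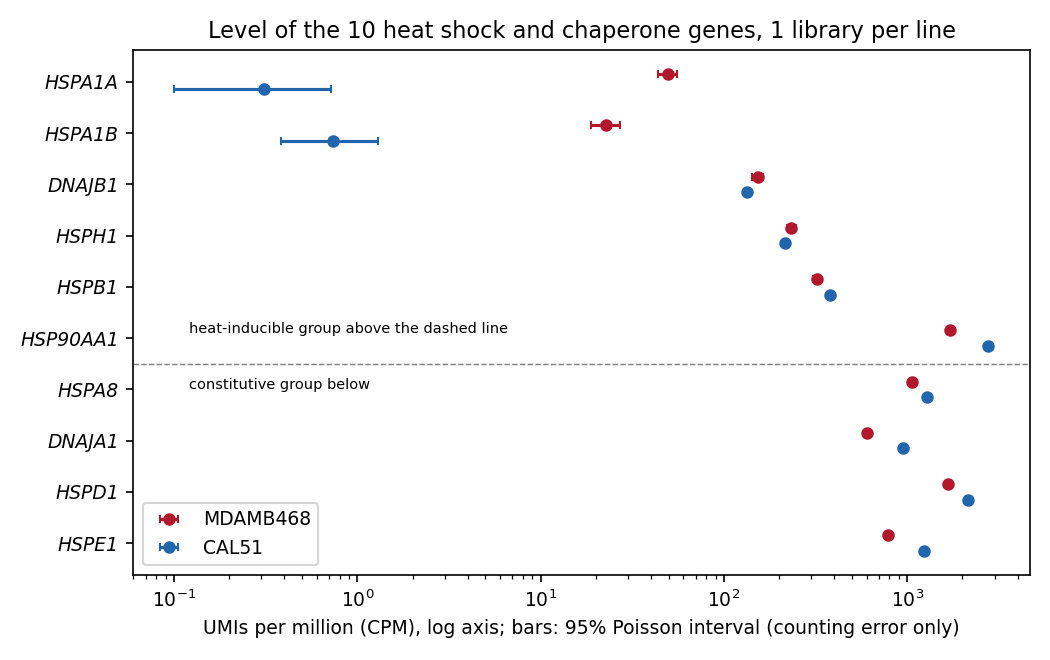
Level of each of the 10 members in MDAMB468 and CAL51 in CPM on a log axis, with 95% Poisson intervals for counting error. HSPA1A and HSPA1B stand far apart between the lines (49.3 and 22.7 CPM against 0.308 and 0.74), while the other 8 members lie within 1.61-fold.

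The other 4 inducible members differed by at most 1.61-fold, 2 in each direction. DNAJB1, the J-domain partner of inducible HSP70 (ENSG00000132002, chromosome 19, 14514770 to 14529770), was at 153 CPM in MDAMB468 and 134 in CAL51, 1.14-fold (1.05 to 1.24) and 0.19 on the log2 scale. HSPH1, the HSP110 exchange factor (ENSG00000120694, chromosome 13, 31134974 to 31162388), was at 233 and 215 CPM, 1.08-fold (1.02 to 1.16) and 0.12 on the log2 scale, 0.24 above the median of all genes, and its sign turned to -0.02 with edgeR's trimmed mean of M values (TMM), -0.03 with median of ratios and -0.07 in barcodes of 5000 to 15000 UMIs. The first pair of settings moves all genes alike, so HSPH1 is close to level and its place among genes did not change with them. DNAJB1 stayed between 0.05 and 0.29 under the 12 settings tried. HSPB1, the small heat shock protein HSP27 (ENSG00000106211, chromosome 7, 76302544 to 76304295), was lower in MDAMB468, at 320.4 against 381 CPM, with CAL51 1.19-fold higher (1.13 to 1.25). HSP90AA1, the inducible cytosolic HSP90 (ENSG00000080824, chromosome 14, 102080738 to 102139699), was at 1719.8 CPM in MDAMB468 and 2766 in CAL51, where it was 1.61-fold higher (1.57 to 1.64). By pooled UMIs HSP90AA1 ranked 83 among all genes in MDAMB468 and 17 in CAL51.

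All 4 constitutive members were lower in MDAMB468. HSPA8 (ENSG00000109971, chromosome 11, 123057489 to 123063230) was at 1066 CPM in MDAMB468 and 1285 in CAL51, 1.21-fold higher in CAL51 (1.17 to 1.24). DNAJA1, a J-domain partner of HSPA8 (ENSG00000086061, chromosome 9, 33025211 to 33039907), was at 605 and 952 CPM, 1.58-fold higher in CAL51 (1.52 to 1.64). HSPD1, mitochondrial HSP60 (ENSG00000144381, chromosome 2, 197486581 to 197516737), was at 1670.3 and 2140.1 CPM, 1.28-fold (1.25 to 1.31). HSPE1, its co-chaperonin HSP10 (ENSG00000115541, chromosome 2, 197499994 to 197503457), was at 780.3 and 1241 CPM, 1.59-fold (1.54 to 1.64). Their log2 differences were -0.27 for HSPA8, -0.65 for DNAJA1, -0.36 for HSPD1 and -0.67 for HSPE1, with a median of -0.51 against -0.13 over all genes. These 4 and HSP90AA1 and HSPB1 were also negative with mitochondrial and ribosomal protein genes out of the total, which moved the median of all genes up by 0.09. TMM and median of ratios moved it by -0.12 and -0.13, the way these members already lay.

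The order of the 8 members other than HSPA1A and HSPA1B was the same in both lines, HSP90AA1, HSPD1, HSPA8, HSPE1, DNAJA1, HSPB1, HSPH1 and DNAJB1 from high to low by pooled UMIs. The top of that order in MDAMB468 rests on the deepest barcodes. With barcodes thinned to 2500 UMIs HSPD1 was above HSP90AA1 there (a mean of 4.47 against 4.06 UMIs) and below it in CAL51 (5.27 against 6.83). In barcodes of 5000 to 15000 UMIs HSPD1 had 1588 UMIs and HSP90AA1 1483 in MDAMB468, against 14294 and 18442 in CAL51. In those barcodes HSPE1 was also above HSPA8 in CAL51 (8266 against 8169 UMIs) and below it in MDAMB468 (666 against 834). The proportions between partners differed. HSP90AA1 was 61.9% (60.3 to 63.5) of its constitutive paralog HSP90AB1 in MDAMB468 and 80.8% (79.8 to 81.8) in CAL51. DNAJB1 was 25.3% (23.4 to 27.3) of DNAJA1 in MDAMB468 and 14.1% (13.4 to 14.7) in CAL51. HSPD1 was 214% (206 to 222) and 172% (169 to 175) of HSPE1, the partners of 1 folding chamber, and HSPH1 was 21.9% (20.6 to 23.2) and 16.8% (16.2 to 17.4) of HSPA8. In barcodes of 5000 to 15000 UMIs the ratio of HSPH1 to HSPA8 was 20.4% (17.2 to 24.1) against 17.2% (16.2 to 18.2), which overlap, and the intervals of the other 3 did not overlap.

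Summed, the 10 members took 0.662% of UMIs in MDAMB468 and 0.912% in CAL51. The inducible members came to 2498 CPM (2457 to 2541) in MDAMB468 and 3497 (3469 to 3526) in CAL51, 1.4-fold higher in CAL51 (1.37 to 1.43). The constitutive members came to 4121 and 5618 CPM, 1.36-fold higher in CAL51 (1.34 to 1.38). HSP90AA1 made up most of the inducible sum, and whether either sum reflects a stress response was not tested. Without HSPB1 and HSP90AA1 the inducible sum was 458 CPM in MDAMB468 and 350.1 in CAL51, so the direction turned, to 1.31-fold higher in MDAMB468 (1.25 to 1.37). HSPA1A and HSPA1B made up 72 of those 458 CPM in MDAMB468 and 1.05 of the 350.1 in CAL51.

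Pseudogenes of some members also held UMIs in the matrix, and the source of those UMIs was not tested. The 14 HSPD1 pseudogenes in the matrix held UMIs equal to 7.68% of those of HSPD1 in MDAMB468 and 4.27% in CAL51, and the 10 of HSPA8 held 2.35% and 0.705%. For DNAJA1 and HSPE1 the shares were 1.05% and 1.23% in MDAMB468 and 0.356% and 0.745% in CAL51. In the last 500 bases, 47.5% of the windows of HSPE1 and 21.7% of those of HSPB1 also occur in transcripts of other genes, the first mainly in the readthrough HSPE1-MOB4 and the second in HSPB1P1. With the treatment of reads that match several genes not given in the sources used here, these levels are uncertain to that extent.

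HSPA1A UMIs were spread over many MDAMB468 barcodes. Of 242 barcodes 106 (43.8%, 37.5 to 50.3) held an HSPA1A UMI, at most 11 each, and 78 (32.2%, 26.4 to 38.5) held one of HSPA1B. The 12 barcodes with the most HSPA1A UMIs held 31.4% of them, and the 12 deepest barcodes held 23.3% of all UMIs. In CAL51, 5 of 1339 barcodes (0.373%, 0.121 to 0.869) held an HSPA1A UMI, never more than 1, and 11 (0.822%, 0.411 to 1.47) a UMI of HSPA1B, at most 2. With every barcode thinned to 2500 UMIs, an HSPA1A UMI was present in 8.31% (5.12 to 12.5) of MDAMB468 and 0.0784% of CAL51 barcodes, and an HSPA1B UMI in 4.98% and 0.146%. The libraries hold no cell type that should lack these genes, so the share that free RNA gives was not measured in either, and the share of barcodes with a UMI is not a share of expressing cells. KRT7 and KRT5, chosen after their values were seen, had 5243 and 2224 UMIs in MDAMB468 and 0 in CAL51 once the shared barcodes were left out.

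Without thinning, HSP90AA1, HSPD1, HSPA8, HSPE1 and DNAJA1 were each found in at least 97.1% of the barcodes of both lines. After thinning, HSP90AA1 was present in 97.1% of MDAMB468 and 99.5% of CAL51 barcodes, HSPD1 in 98% and 98.8%, HSPA8 in 87.9% and 92.4%, HSPE1 in 83.4% and 92.2% and DNAJA1 in 76.4% and 87.6%. HSPB1 was present in 47.9% (41.5 to 54.4) and 56.9% (54.2 to 59.6). DNAJB1, at 30.2% and 27.6%, and HSPH1, at 38.7% and 39.5%, had overlapping intervals. The Fano factor, the variance of thinned counts over their mean and 1 for counting noise alone, lay between 1.02 and 1.42 in MDAMB468 over the 10 members and between 1.05 and 1.58 in CAL51 over the 8 that could be measured. It was highest for HSP90AA1 in both lines, at 1.42 and 1.58. Thinning pulls this factor toward 1, and at 5000 UMIs it was 1.83 and 2.08 for HSP90AA1 in MDAMB468 and CAL51, 1.46 and 1.76 for HSPA8 and 1.52 and 1.74 for HSPD1.

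Several members were higher in barcodes richer in mitotic transcripts, in both lines. Barcodes were split into terciles by the share of UMIs from MKI67, TOP2A, CENPF, PLK1, AURKA, CCNB1, CDC20, PTTG1, UBE2C and TPX2, a list chosen after values of these data were seen. HSP90AA1 went from 1389 CPM (1324 to 1456) in the lowest tercile of MDAMB468 to 1928 (1869 to 1989) in the highest, and from 2441 (2396 to 2487) to 2942 (2898 to 2986) in CAL51, ratios of 1.39 and 1.21. DNAJA1 went from 508 to 679.7 CPM and from 814 to 1077, ratios of 1.34 (1.22 to 1.47) and 1.32 (1.27 to 1.38). HSPH1 had ratios of 1.39 (1.19 to 1.63) and 1.33 (1.22 to 1.45).

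DNAJB1 showed a ratio of 1.44 (1.29 to 1.61) in CAL51 and 1.14 (0.952 to 1.38) in MDAMB468, and HSPA1A one of 1.83 (1.28 to 2.65) in MDAMB468, from 34 to 62.1 CPM. HSPD1 was level, at 1.01 in both lines, and HSPB1 was at 0.885 (0.779 to 1.01) and 0.911 (0.856 to 0.97). Over all genes with at least 200 UMIs in those terciles the median ratio was 0.998 (percentiles 5 to 95, 0.77 to 1.51) in MDAMB468 and 1.01 (0.771 to 1.37) in CAL51. DNAJB1 in CAL51 was above that range, with an interval that reaches into it, and the other members with that many UMIs were inside it. HSPA1A, with fewer, was also above it, again with an interval that reaches into it, and HSPA1B was at 1.51 (0.929 to 2.54). The highest tercile was also deeper, with a median of 17018 against 9853 UMIs per barcode in MDAMB468 and 9481 against 7465 in CAL51. Split by total UMIs instead, MDAMB468 had ratios of 1.62 (0.972 to 2.89) for HSPA1A, 1.47 (1.16 to 1.87) for HSPH1, 1.16 (1.07 to 1.25) for HSP90AA1 and 0.952 (0.843 to 1.08) for DNAJA1. In CAL51 the depth ratios were 1.11 (0.971 to 1.27) for DNAJB1, 1 (0.903 to 1.11) for HSPH1, 1.06 (1.03 to 1.09) for HSP90AA1 and 1.11 (1.05 to 1.17) for DNAJA1. The ratios of HSPA1A and HSPH1 in MDAMB468 were thus of like size in both splits, and that of DNAJA1 was not.

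**Figure D2:**
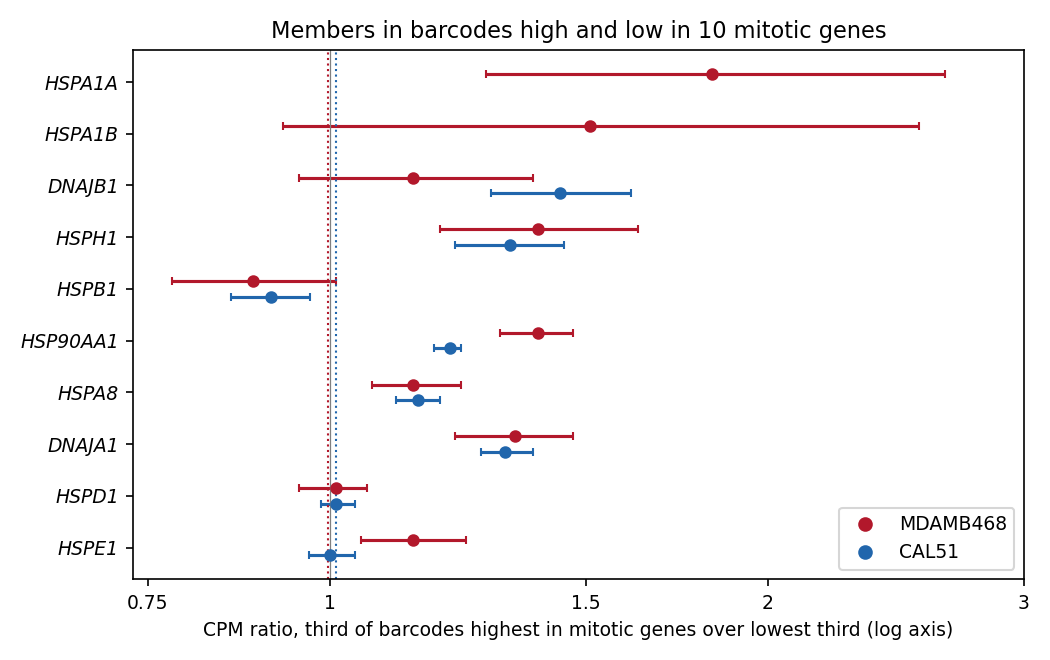
Ratio of a member's CPM in the highest to that in the lowest tercile of barcodes by mitotic gene share, for MDAMB468 and CAL51 on a log axis, with 95% counting intervals and dotted lines at the median of all genes. HSP90AA1, DNAJA1 and HSPH1 lie right of 1 in both lines (1.39 and 1.21 for HSP90AA1) and HSPD1 lies at 1.01 in both.

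The members differed in how they moved with the mitochondrial share, which was higher in MDAMB468. From the lowest to the highest tercile by that share HSPA8 changed by a ratio of 0.808 (0.754 to 0.866) in MDAMB468 and 0.836 (0.807 to 0.866) in CAL51, and the inducible sum, mostly HSP90AA1, by 0.993 and 1. Other inducible members moved as far in MDAMB468, DNAJB1 by 0.789 (0.656 to 0.947), HSPB1 by 0.794 (0.703 to 0.895) and HSPH1 the other way by 1.22 (1.06 to 1.41). All genes had a median of 0.946 (percentiles 5 to 95, 0.731 to 1.29) in MDAMB468 and 0.981 (0.768 to 1.31) in CAL51, a range that holds all of these values. HSPA1A and HSPA1B together had a ratio of 0.783 (0.591 to 1.03) in MDAMB468. Their level there was 74.9, 79.6 and 58.6 CPM from the lowest to the highest tercile, and 0.83, 1.18 and 1.3 CPM in CAL51, so every tercile of MDAMB468 was above every tercile of CAL51. By total UMIs the pair was at 53.6, 56.6 and 80.1 CPM in MDAMB468 and 0.489, 1.01 and 1.18 in CAL51, and again the lines did not overlap.

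At equal depth the members varied together weakly in CAL51 and hardly at all in MDAMB468. Correlations are Spearman coefficients over barcodes thinned to 2500 UMIs, given as descriptions, and HSPA1A and HSPA1B were left out because they were near 0 in CAL51. Over the 28 pairs of the other 8 members the median coefficient was 0.05 in CAL51, from -0.02 to 0.19 with 23 positive, and 0.01 in MDAMB468, from -0.10 to 0.09 with 16 positive. The highest pairs in CAL51 were HSP90AA1 with HSPD1 (0.19), HSPD1 with HSPE1 (0.18) and HSP90AA1 with HSPE1 (0.16). HSPD1 with HSPE1 was at 0.07 in MDAMB468. The inducible sum and the constitutive sum had a coefficient of 0.27 in CAL51 and 0.01 in MDAMB468. At 5000 UMIs, over 1069 and 208 barcodes, it was 0.36 and 0.07. The 28 pairs then ran from -0.01 to 0.29 in CAL51, with a median of 0.08. In MDAMB468 they ran from -0.11 to 0.16, with a median of 0.02. Counts this sparse hold every coefficient near 0, and all barcodes of a line share 1 library. HSPA1A with HSPA1B was at 0.01 in MDAMB468 at 2500 UMIs and at 0.04 at 5000 UMIs. Without thinning, where depth was not made equal, that pair was at 0.28.

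**Figure D3:**
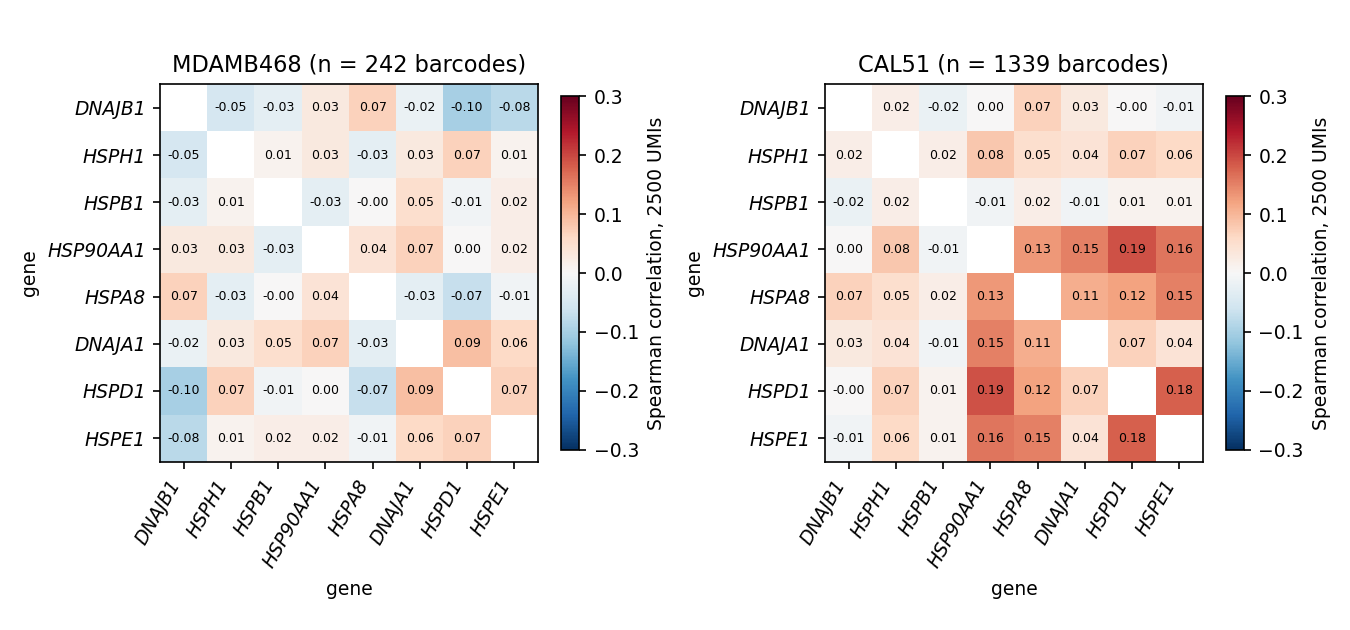
Spearman correlation between members over barcodes thinned to 2500 UMIs, with MDAMB468 (242 barcodes) and CAL51 (1339 barcodes) in separate panels. The values for the 8 members other than HSPA1A and HSPA1B lie between -0.10 and 0.09 in MDAMB468 and between -0.02 and 0.19 in CAL51.

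The genes closest to the members are named for each line. Among 822 genes in MDAMB468 the inducible sum was closest to CENPF (0.20), PTTG1 (0.19), ARL6IP1 (0.18), ANP32E (0.14) and CKS2 (0.14). Among 914 genes in CAL51 it was closest to HSP90AB1 (0.22), HSPD1 (0.19), HSPE1 (0.15), HMGN2 (0.15) and DNAJA1 (0.15). The inducible sum had coefficients of 0.11 and 0.06 with the total UMIs and 0.05 and -0.03 with mitochondrial UMIs in MDAMB468 and CAL51. HSPA8 was closest to KRT8 (0.17), TUBA1B (0.15), ACTB (0.15), CFL1 (0.13) and ACTG1 (0.12) in MDAMB468. In CAL51 HSPA8 was closest to HSPE1 (0.15), HSP90AB1 (0.14), HSP90AA1 (0.13), HSPD1 (0.12) and DNAJA1 (0.11). HSPA8 had coefficients of 0.16 and 0.07 with the total UMIs and -0.10 and -0.14 with mitochondrial UMIs in MDAMB468 and CAL51, of the same size as those with these genes.

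Values of the genes beside HSPA1A and HSPA1B were also taken. Of 37 genes within 200000 bases, 21 had at least 20 UMIs, with a median log2 difference of 0.25. At or past 2-fold in MDAMB468 were 2 of them, SNHG32 (428 and 100.1 CPM) and CFB (44 and 0 UMIs), and NEU1 was past it in CAL51 (24.2 and 93.4 CPM), where 15.8% and 18.6% of all genes were past it. LSM2, at 215 and 234 CPM, and CSNK2B, at 299 and 269.9 CPM, were close to level. These 5 were picked after their values were seen.

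The other chaperone genes put the members in context. Of 96 listed genes 93 were matched, 86 had at least 20 UMIs, and HSPA6, HSPB11 and CRYAA were not analysed here. Their median log2 difference was -0.35, with 4 at or past 2-fold in MDAMB468 and 17 in CAL51, where 15.8% and 18.6% of all genes tested were. The count in CAL51 is near that background, and the counts for the lists that follow are to be read against the same shares. Among the 5 other HSP70 and HSP110 genes listed with enough UMIs, HSPA2, HSPA4, HSPA4L, HSPA13 and HSPA14, 1 was past 2-fold in MDAMB468 and 2 in CAL51. HSPA2, best known from the testis, had 41 UMIs in MDAMB468 and 4 in CAL51, 30.2-fold (10.9 to 116), the same direction as HSPA1A and HSPA1B. HSPA4 was at 229 and 463 CPM, HSPA4L at 12.4 and 45.8, both HSP110-type exchange factors higher in CAL51, and HSPA14 at 79.8 and 56.8.

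HSP90AB1 and the co-chaperones of HSP90 were mixed, with a median of -0.38 over 13 genes, the pseudogene AHSA2P among them. CDC37, which brings kinases to HSP90, was at 539 CPM in MDAMB468 and 139.6 in CAL51, 3.86-fold (3.66 to 4.08). AHSA1, which stimulates the HSP90 ATPase, was at 64.3 and 183 CPM, 2.84-fold higher in CAL51 (2.55 to 3.18). HSP90AB1 was at 2779 and 3423 CPM, FKBP4 at 57.1 and 111, and CACYBP at 527 and 479.7. Of 13 DNAJ genes none was past 2-fold in MDAMB468 and 3 were in CAL51, near the 18.6% of all genes, with DNAJC8 at 154 and 343 CPM and DNAJB5 at 2 and 108 UMIs, 18.3-fold (4.95 to 153). DNAJA2 was at 268 and 148 CPM and DNAJB2 at 14 and 9.62.

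Of 9 genes, BAG1 to BAG6 with HSPBP1, STUB1 and ST13, 1 was past 2-fold. This was BAG1, at 188 CPM in MDAMB468 and 56.3 in CAL51, 3.33-fold (3.05 to 3.65). BAG3, itself a heat shock gene, was at 18.5 and 11.5 CPM, 1.62-fold (1.26 to 2.07), while BAG2 was at 80.7 and 160.3 and BAG4 at 22.5 and 38.7. CRYAB, the 1 small heat shock gene of this list with at least 20 UMIs, was at 2.73 and 20.8 CPM, 7.64-fold higher in CAL51 (4.57 to 13.8). HSF1 was at 37.1 and 39.1 CPM and HSF2 at 20.2 and 23.1, and none of the 5 genes of heat shock factors and regulators was past 2-fold, HSF4 and HSF2BP included (0.28 and -0.30 on the log2 scale).

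Chaperones of the organelles and the cytosolic chaperonin complete the lists. Of 9 other mitochondrial genes listed, the proteases CLPP and LONP1 among them, 1 was past 2-fold. This was HSPA9, the mitochondrial HSP70, at 358 and 748 CPM and 2.09-fold higher in CAL51 (1.99 to 2.19). TRAP1, the mitochondrial HSP90, was at 75.2 and 137 CPM, and CLPB and HSCB were higher in MDAMB468 by 0.63 and 0.46 on the log2 scale. Of 17 chaperones of the endoplasmic reticulum (ER), 16 were lower in MDAMB468 and 9 were past 2-fold in CAL51, with a median of -1.08. Over all 15347 genes, 8454 were lower in MDAMB468 and 18.6% were past 2-fold in CAL51. HSPA5 was at 527 and 1372 CPM, HSP90B1 at 864 and 2872, SERPINH1 at 52 and 171 and CRELD2 at 40.5 and 192, and PDIA6 and CANX were nearest to level (-0.55 and 0.06 on the log2 scale). The 14 subunits of the chaperonin TRiC and prefoldin, 7 higher and 7 lower in MDAMB468, had a median of 0.07 and 1 gene past 2-fold in MDAMB468, CCT6A. CCT6A was at 3392 and 948 CPM, PFDN2 at 218 and 118, TCP1 at 240.1 and 370, and CCT2 at -0.69 on the log2 scale.

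**Figure D4:**
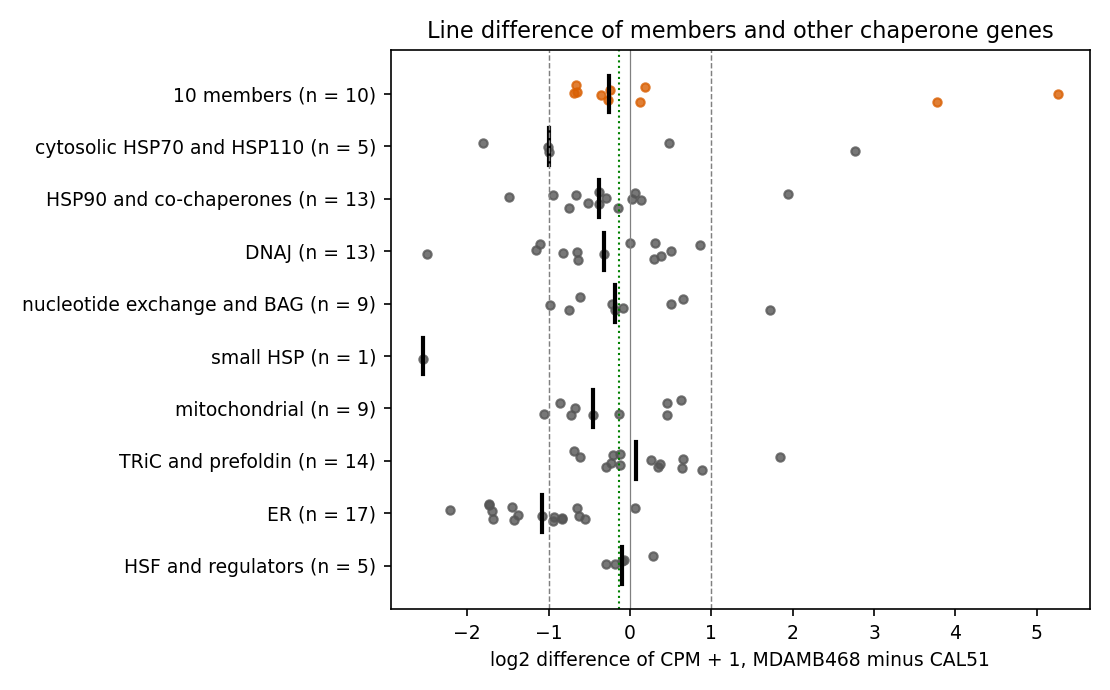
Log2 difference, MDAMB468 minus CAL51, on the scale log2(CPM + 1), for each member and for each other chaperone gene with at least 20 UMIs, grouped by list, with the median of each list. HSPA1A and HSPA1B stand at 5.26 and 3.77, and the ER chaperones have a median of -1.08 against -0.13 over all genes.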

How the data were processed

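Poly(A) RNA of 2 cell lines was captured by Drop-seq, with 1 library per line. The authors deposited 1 matrix of UMI counts, whole numbers for each gene in each barcode. STARsolo was used per the submitters' processing notes, with build, annotation, barcode filter and doublet treatment not given in the sources used here. Lines were read from the barcode prefixes, which match the sample titles. Of 30796 gene identifiers, 30730 matched a symbol and 29416 GENCODE 29, from which positions (GRCh38) were taken; promoter sequences are RefSeq's. No doublet caller was run. Counts were summed per line over its barcodes, the shallowest of 2501 (MDAMB468) and 2506 UMIs (CAL51), and scaled to CPM. Differences are MDAMB468 minus CAL51 in log2(CPM + 1), over genes with at least 20 UMIs in both lines together; called means at or past 2-fold. Intervals are exact Poisson, exact conditional binomial for ratios, and Clopper-Pearson for shares. Thinning to 2500 UMIs was averaged over 20 seeded draws. Alternatives changed barcodes, scaling, pseudocount, pseudogenes and thinning, and the scripts were tested on simulated data. The members and lists were chosen with earlier results of these data known. Named from each list were the 2 highest and 2 lowest genes by log2 difference, HSP90AB1, HSPA5, HSPA9, HSF1, BAG3 and SERPINH1, and in each line the 5 genes most correlated with the inducible sum and with HSPA8. Software was scipy 1.17.1 and pandas 2.3.3 under Python 3.11.15, and edgeR 4.0.16 under R 4.3.3 for TMM factors only.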

Additional observations from a re-analysis of the deposited data

Results flagged for a closer look

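HSPA1A appeared in barcodes that the comparisons left out. The 31 barcode sequences found under both names held 4 HSPA1A UMIs in the copies labelled CAL51, or 29.6 CPM (8.06 to 75.7), against 0.308 CPM in the other CAL51 barcodes and 54.1 CPM in the copies labelled MDAMB468. HSPA1B had 1 UMI there. The copies labelled CAL51 also held 106 UMIs of KRT7 and 40 of KRT5, genes with 0 UMIs in the other CAL51 barcodes. Of GPC3, with 10814 UMIs in the other CAL51 barcodes and 0 in MDAMB468, they held 15. The origin of the RNA in these copies was not tested, and the HSPA1A value was not read as a level of CAL51 cells. With these copies kept, the log2 difference was 5.02 for HSPA1A and 3.72 for HSPA1B.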

How the results depend on the processing

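Over 12 settings HSPA1A stayed between 2.52 and 6.92 and HSPA1B between 1.61 and 4.76 on the log2 scale, and the directions of all members but HSPH1 held; of the members' single differences under alternatives 71 moved within counting error and 39 beyond it. The constitutive sum (-0.45) was -0.39 in barcodes of 5000 to 15000 UMIs, -0.41 as a mean CPM over barcodes, -0.58 with TMM, -0.59 with median of ratios, -0.35 with mitochondrial and ribosomal protein genes out of the total and -0.42 with pseudogenes added. The inducible sum (-0.49) was -0.62, -0.63 and -0.38 under those 3 scalings and 0.39 without HSPB1 and HSP90AA1, and the median of members (-0.26) was -0.39, -0.40 and -0.16. With HSPA1A and HSPA1B summed, 1 member was past 2-fold in MDAMB468. Without a filter on low counts 9.80% of genes were past 2-fold in MDAMB468 and 9.45% in CAL51. The median pair correlation was 0.14 in CAL51 and 0.06 in MDAMB468 when not thinned. The count of ER chaperones past 2-fold, whose alternatives were added after seeing the data, ran from 8 to 11. The cause of these shifts was not tested. At 0 UMIs a gene could still have had 3 counts, and 5 and 12 UMIs limit HSPA1A and HSPA1B in CAL51. No paired analysis was possible because each line has 1 library.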
